A study of Mus musculus with 24 samples.

Results

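The genes described here are 38 markers of endothelial cells, the cells that line blood vessels. They were taken as a list of gene symbols, and the list and its roles were chosen with earlier results of these data known. The 7 groups by role were 8 junction and adhesion genes, 2 glomerular genes, 5 arterial genes, 6 capillary genes, 7 transcription factors, 6 receptors and enzymes, and 4 secreted or matrix-bound proteins. All 38 were found among the 22911 named genes of the array. Each gene was read from its brightest probe, which was well above background on all 24 arrays for each of the 38, and all 38 were among the 17736 genes tested.

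Kidney endothelium is not uniform. Glomerular capillaries are thin and fenestrated and filter the blood, peritubular capillaries take back what the tubules reabsorb, and arteries and arterioles carry Notch signalling and gap junctions of the connexin family. Junction proteins such as VE-cadherin hold neighbouring cells together, and transcription factors of the ETS and SOX families keep the endothelial programme on.

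The study asked how kidney expression changes early in diabetes and under enarodustat, a drug that stabilizes hypoxia-inducible factor (HIF) by blocking the prolyl hydroxylases that mark it for degradation. Renal tissue came from male mice of the outbred strain Crl:CD1(ICR). Sham mice (n = 6) received vehicle and normal feed. DKD mice (n = 9, for diabetic kidney disease) received alloxan, a toxin of insulin-producing cells, intravenously at 90 mg/kg and normal feed. DKD+enarodustat mice (n = 9), called the enarodustat group here, received the same alloxan dose and feed with 0.01% (w/w) enarodustat. Alloxan or vehicle was given 3 days before grouping, the 2 alloxan groups were matched on blood glucose and body weight, and kidneys were taken 16 days after grouping. The model is therefore an early toxin-induced diabetes in whole kidney tissue, and no sham mice with enarodustat were among the groups.

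A level is the log2 of a probe's signal after subtraction of that array's 75th percentile on the log2 scale. Changes are log2 differences between group means ± SE from 1 limma fit over all 24 arrays, and a gene passed when its p-value, adjusted by the Benjamini-Hochberg method over all 17736 genes, was under 0.05. The kidney markers Slc34a1 and Aqp2 were well above background on all 24 arrays. Each array had between 37716 and 44732 spots well above background. The arrays filled 3 slides, each with 2 sham, 3 DKD and 3 enarodustat arrays. On each slide the sham arrays occupied row 1 and the enarodustat arrays row 2; of the DKD arrays, 6 were in row 1 and DKD 3, 6 and 9 in row 2, so the main counts are also given with the row taken into account. Scaling by the array median in place of the 75th percentile lowered the median change of all genes by more than 0.1, to -0.12 for DKD minus sham and -0.16 for enarodustat minus sham. The genes passing in DKD minus sham were then 378 higher and 925 lower in place of 971 higher and 1087 lower, and in enarodustat minus sham 706 higher and 1652 lower in place of 1550 higher and 1198 lower. Quantile normalization gave 1411 higher and 1407 lower in the latter comparison. DKD arrays stand in both comparisons with alloxan groups and sham arrays in both comparisons with sham, so the comparisons are not independent of each other.

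In diabetic kidneys without the drug, the endothelial list moved little. In DKD minus sham, Gja5 and Sox17 rose, Esm1 and Dll4 fell, and the other 34 genes did not pass. Across all genes tested, 5.47% were higher and 6.13% lower (11.6% in either direction), so 2 higher and 2 lower of 38 is near the background. The median change over the 38 was 0.08, with 25 above 0, against a median of -0.01 over all genes. None of the 38 had non-overlapping groups, a state that 1.48% of all genes reached upward and 1.92% downward. At an unadjusted p under 0.05 there were 10 higher and 3 lower of the 38, where 12% of all genes were higher and 12.8% lower. RNA came from whole tissue, so a different number of endothelial cells and a different amount of RNA per endothelial cell cannot be told apart in any comparison.

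Esm1, which encodes endocan, a proteoglycan released by endothelial tip cells and by glomerular endothelium, showed the larger of the falls. Its level ran from 2.50 to 3.08 with a median of 2.91 in sham mice, from 1.86 to 2.60 with a median of 2.13 in DKD mice, and from 2.40 to 3.25 with a median of 2.72 with enarodustat. All 9 DKD arrays lay below the sham mean, and the groups overlapped through sham 5, the lowest sham array, and DKD 1, 3 and 6. The fall was 0.62 ± 0.14 on the log2 scale (1.53-fold, adjusted p = 0.00503), with changes of -0.55, -0.80 and -0.49 within the 3 slides. It passed under every alternative run, with adjusted p from 0.00227 to 0.0276, and against DKD arrays of the first slide row it was -0.69. Enarodustat minus DKD was 0.49 ± 0.12 and did not pass (adjusted p = 0.0702), and enarodustat minus sham was -0.13 (adjusted p = 0.594, 95% interval -0.41 to 0.16).

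Dll4, a Notch ligand of arterial and tip endothelium, was chosen for naming after its values were seen. It ranged from -3.33 to -2.68 (median -3.04) in sham mice, from -3.65 to -3.10 (median -3.40) in DKD mice and from -3.59 to -2.96 (median -3.26) with enarodustat. Every DKD array was below the sham mean, and the ranges overlapped through the lower sham and the higher DKD arrays. The change in DKD minus sham was -0.37 ± 0.12 (adjusted p = 0.0395). It did not pass when sham 1, 3 or 4 or DKD 1, 2, 5, 7 or 8 was left out (adjusted p up to 0.118), nor under 4 other settings, and with the row as a term it was -0.45 (adjusted p = 0.0207), with adjusted p from 0.0207 to 0.319 over the alternatives.

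Gja5, which encodes connexin 40 of arterial endothelium and of the renin-producing cells, lay between -1.75 and -1.47 (median -1.63) in sham mice, between -1.54 and -1.03 (median -1.11) in DKD mice and between -1.85 and -1.15 (median -1.47) with enarodustat. DKD 5 and DKD 9 were the DKD arrays within the sham range, and the enarodustat arrays overlapped both other groups. The rise in DKD was 0.42 ± 0.12 (1.34-fold, adjusted p = 0.0205). A second Gja5 probe, also well above background on all 24 arrays, changed by -0.04, and with probes averaged, with array-median scaling or with quantile normalization Gja5 did not pass. Sox17, an arterial transcription factor of the SOXF family, ran from -1.93 to -1.50 (median -1.67) in sham mice, from -1.51 to -1.07 (median -1.27) in DKD mice and from -1.67 to -0.88 (median -1.11) with enarodustat. Of the DKD arrays, DKD 1 alone lay inside the sham range. Sox17 rose by 0.37 ± 0.10 (1.29-fold, adjusted p = 0.0176), a second probe changed by 0.01, and Sox17 did not pass with probes averaged, with array-median scaling or with the replicate block. Without sham 2 neither gene passed (adjusted p of 0.053 for Gja5 and 0.0593 for Sox17) and 0 members were higher in limma, with 5 higher at an unadjusted p under 0.05 in place of 10. With the slide row as a term both passed, Gja5 at 0.46 (adjusted p = 0.0216) and Sox17 at 0.36 (adjusted p = 0.038). Over the alternatives, adjusted p ran from 0.0115 to 0.341 for Gja5 and from 0.00201 to 0.329 for Sox17.

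**Figure D1:**
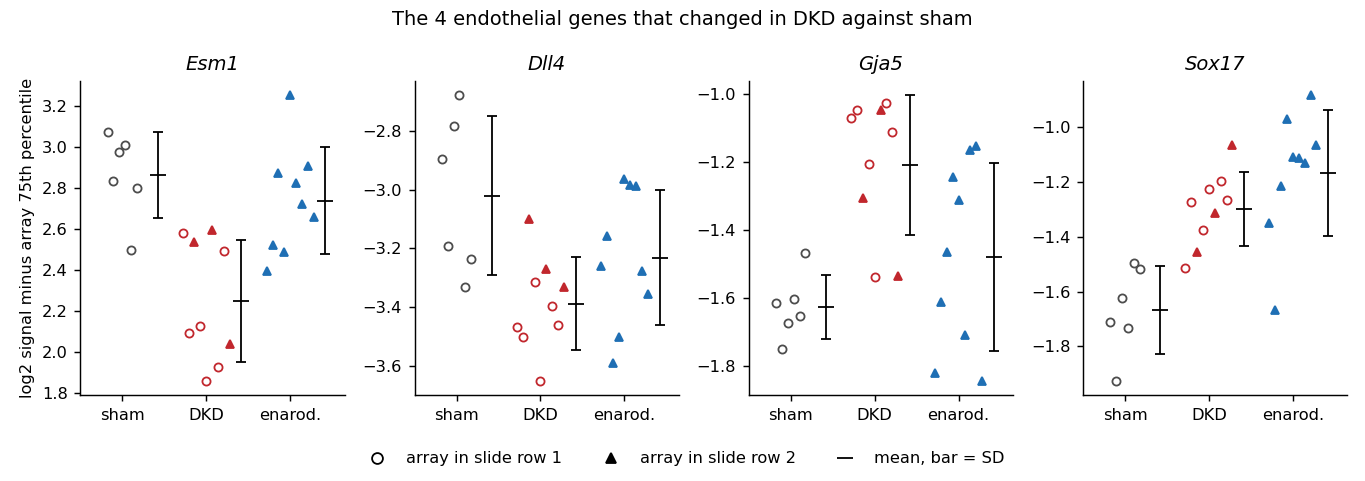
Level (log2 signal minus the array's 75th percentile, y axis) of Esm1, Dll4, Gja5 and Sox17 on each array by group, with open circles for arrays in the first slide row, filled triangles for the second, and the mean with SD beside each group. All 9 DKD arrays lie below the sham mean for Esm1 and Dll4 and above it for Gja5 and Sox17, and the sham and DKD ranges overlap for all 4 genes.

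By role, the DKD minus sham medians were 0.19 over the 5 arterial genes, 0.25 over the 4 secreted or matrix-bound proteins, 0.11 over the 8 junction and adhesion genes, 0.04 over the 2 glomerular genes, 0.03 over the 7 transcription factors, 0.04 over the 6 receptors and enzymes and -0.16 over the 6 capillary genes. Among capillary genes, Aplnr, the apelin receptor, was at -0.46 ± 0.16 (adjusted p = 0.0639) and did not pass, while with the slide row as a term it was -0.55 (adjusted p = 0.0415). Vwf, which encodes von Willebrand factor and is made by endothelium and by megakaryocytes, was at 0.49 ± 0.18 (adjusted p = 0.0796), with within-slide values of 0.71, 0.68 and 0.06, and did not pass. With the slide row as a term Vwf was at 0.59 and passed (adjusted p = 0.0438), so that 3 genes were higher and 3 lower in that fit. Of all 17736 genes tested, 986 (5.56%) were higher and 1196 lower there, so these counts too are near the background. Pecam1, the CD31 adhesion molecule, was at 0.21 (adjusted p = 0.134), Cdh5, which encodes VE-cadherin, at 0.20 (adjusted p = 0.176), and Plvap, the protein of fenestral diaphragms, at 0.08 (adjusted p = 0.645). Ehd3 was at 0.03 (adjusted p = 0.901), Apln at -0.13 (adjusted p = 0.658), Nos3, the endothelial nitric oxide synthase, at 0.08 (adjusted p = 0.723), and Ets1 at -0.09 (adjusted p = 0.647), with its second probe at 0.05. With array-median scaling the median over the 38 was -0.03, against -0.12 over all genes, and 16 of 38 were above 0. Ehd3, Plvap, Nos3, Ecscr, Ehd4, Notch4 and Egfl7 were then below 0. That scaling moved all 38 by the same amount.

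Some of the 38 genes were higher in diabetic kidneys with enarodustat than in those without it, and none of these calls held once the slide row was taken into account. In enarodustat minus DKD, 10 of the 38 rose and 0 fell, where 0.609% of all genes tested were higher and 0.107% lower (0.716% in either direction). The median change over the 38 was 0.25, with 36 above 0, against 0.005 over all genes, and the within-slide medians were 0.20, 0.30 and 0.32. At an unadjusted p under 0.05 limma gave 24 higher and 1 lower, where 6.46% of all genes were higher and 4.46% lower. Non-overlapping groups were seen for 1 member, Apln, against 0.135% of all genes upward and 0.0113% downward.

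The 10 risers were unevenly spread over the roles. They comprised 5 of 6 capillary genes (Apln, Aplnr, Emcn, Cd34 and Plvap), 3 of 8 junction and adhesion genes (Ecscr, Esam and Cdh5), 1 of 2 glomerular genes (Ehd3) and 1 of 4 secreted proteins (Egfl7). Among the arterial genes 0 of 5 passed, among transcription factors 0 of 7, and among receptors and enzymes 0 of 6. In limma, the arterial genes had 2 higher and 1 lower at an unadjusted p under 0.05, the transcription factors 2 higher, and the receptors and enzymes 5 higher. Whether the roles differ from each other was not tested.

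Apln encodes apelin, a secreted peptide of sprouting and hypoxic endothelium, and Aplnr its receptor. The 250 bases before the start of Apln and of the other risers with 1 window in the RefSeq promoter table (build GRCm38.p6), together with Esm1, are printed because ETS factors and HIF are regulators commonly named for endothelial and hypoxia-responsive genes. Capitals mark the ETS core GGAA and the hypoxia response cores ACGTG and GCGTG, read on both strands, so that TTCC, CACGT and CACGC in capitals are the same motifs on the other strand.
Apln, chrX:48034854-48035103, minus strand: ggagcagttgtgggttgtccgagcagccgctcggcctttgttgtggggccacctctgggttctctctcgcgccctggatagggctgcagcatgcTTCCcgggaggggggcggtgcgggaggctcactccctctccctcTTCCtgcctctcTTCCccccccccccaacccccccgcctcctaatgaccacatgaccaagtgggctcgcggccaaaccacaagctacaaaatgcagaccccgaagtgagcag
Cd34, chr1:194938571-194938820, plus strand: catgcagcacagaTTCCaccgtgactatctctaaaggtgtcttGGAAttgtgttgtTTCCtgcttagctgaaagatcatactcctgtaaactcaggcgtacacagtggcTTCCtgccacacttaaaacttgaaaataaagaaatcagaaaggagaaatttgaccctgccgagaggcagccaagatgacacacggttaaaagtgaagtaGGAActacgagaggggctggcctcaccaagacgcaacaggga
Emcn, chr3:137340828-137341077, plus strand: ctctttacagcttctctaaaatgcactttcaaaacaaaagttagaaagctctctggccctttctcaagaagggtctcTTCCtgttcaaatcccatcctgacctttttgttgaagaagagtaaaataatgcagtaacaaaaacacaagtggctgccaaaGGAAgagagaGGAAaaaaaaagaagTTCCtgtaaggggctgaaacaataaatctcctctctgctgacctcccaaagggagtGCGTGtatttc
Ehd3, chr17:73804591-73804840, plus strand: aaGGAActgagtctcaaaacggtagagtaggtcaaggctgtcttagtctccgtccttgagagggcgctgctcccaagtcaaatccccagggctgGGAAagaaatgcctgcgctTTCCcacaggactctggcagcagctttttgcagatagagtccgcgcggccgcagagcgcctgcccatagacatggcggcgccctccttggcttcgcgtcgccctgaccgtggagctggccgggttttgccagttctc
Esm1, chr13:113209409-113209658, plus strand: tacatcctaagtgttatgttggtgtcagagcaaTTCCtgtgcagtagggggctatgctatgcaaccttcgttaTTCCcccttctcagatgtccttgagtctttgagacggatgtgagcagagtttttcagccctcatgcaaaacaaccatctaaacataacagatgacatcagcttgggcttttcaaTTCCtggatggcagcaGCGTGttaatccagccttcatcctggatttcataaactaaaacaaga
The Apln window held 3 GGAA matches and no match to either hypoxia core, that of Cd34 held 5 GGAA matches, that of Ehd3 3, that of Emcn 4 with 1 GCGTG, and that of Esm1 3 with 1 GCGTG. Of the 38 genes, 20 had at least 1 window (25 windows), and 19 of the 20 genes held GGAA. By window this was 23 of 25, where 93.4% of all 32851 windows of this length in the table hold it. GCGTG was found in 6 of the 20 genes (6 of 25 windows) and in 28.2% of all windows. ACGTG was found in 1 of the 20 genes (Clec14a, 1 of 25 windows) and in 16.6% of all windows. The SOX site AACAAT was in 3 of the 20 genes (3 of 25 windows, against 9.42% of all windows) and the GATA site AGATAA in 2 (2 of 25, against 9.99%). The E-box CANNTG, which can overlap ACGTG, was in 10 genes (11 of 25 windows, against 66.2%). These counts describe letters in a window and not binding.

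Apln levels ran from -1.42 to -0.95 (median -1.22) in sham mice, from -1.80 to -0.79 (median -1.21) in DKD mice and from -0.69 to 0.11 (median -0.50) with enarodustat. All 9 enarodustat arrays lay above all DKD and all sham arrays. The change in enarodustat minus DKD was 0.96 ± 0.14 (1.95-fold, adjusted p = 0.000353), with 0.92, 1.08 and 0.89 within the slides. Aplnr ran from -3.13 to -2.61 (median -2.92) in sham mice, from -4.14 to -2.77 (median -3.27) in DKD mice and from -2.95 to -2.40 (median -2.72) with enarodustat. Only DKD 6 among the DKD arrays reached the enarodustat range, and the enarodustat and sham ranges overlapped. The change was 0.70 ± 0.14 (1.62-fold, adjusted p = 0.02), and over the alternatives it was as low as 0.24, after normexp background correction, where it did not pass (adjusted p from 0.00631 to 0.339 over all alternatives).

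Emcn encodes endomucin, a sialomucin of capillary and venous endothelium. It lay between 3.16 and 3.42 (median 3.29) in sham mice, between 2.76 and 3.42 (median 3.14) in DKD mice and between 3.34 and 3.91 (median 3.56) with enarodustat. DKD 4 and DKD 9 reached the enarodustat range, and enarodustat 5 was the highest array. Emcn changed by 0.43 ± 0.09 (1.35-fold, adjusted p = 0.0191). Cd34, a sialomucin of capillaries that blood progenitors also carry, ran from 2.48 to 2.75 (median 2.63) in sham mice, from 2.51 to 3.10 (median 3.03) in DKD mice and from 3.02 to 3.68 (median 3.28) with enarodustat. Enarodustat 7 fell within the DKD range and the other 8 enarodustat arrays lay above every DKD array, while DKD arrays lay partly in and partly above the sham range. The change was 0.43 ± 0.09 (1.34-fold, adjusted p = 0.0215), and a second Cd34 probe gave 0.31.

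For Plvap, levels were 3.15 to 3.50 (median 3.30) in sham mice, 3.13 to 3.73 (median 3.40) in DKD mice and 3.62 to 4.08 (median 3.73) with enarodustat. DKD 6 was the 1 DKD array inside the enarodustat range, and no sham array reached it. Plvap changed by 0.42 ± 0.08 (1.34-fold, adjusted p = 0.0139). Cdh5 ran from -0.26 to 0.06 (median -0.07) in sham mice, from -0.20 to 0.35 (median 0.14) in DKD mice and from 0.23 to 0.84 (median 0.55) with enarodustat. Of the enarodustat arrays, enarodustat 5 alone lay below a DKD array, and all 9 lay above the sham range. The rise was 0.43 ± 0.08 (1.35-fold, adjusted p = 0.0103), with 0.40, 0.39 and 0.52 within the slides.

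Esam, an adhesion molecule of endothelial tight junctions and platelets, lay between 0.38 and 0.89 (median 0.68) in sham mice, between 0.53 and 1.19 (median 0.82) in DKD mice and between 1.14 and 1.49 (median 1.19) with enarodustat. The highest DKD array, DKD 9, was the 1 array of that group in the enarodustat range, and the enarodustat group had the smallest SD of the 3, at 0.12 against 0.20 in DKD mice and 0.23 in sham mice. Esam changed by 0.46 ± 0.09 (1.37-fold, adjusted p = 0.0154). Ecscr, a surface protein of endothelial cells that takes part in migration, ran from -1.13 to -0.90 (median -0.98) in sham mice, from -1.64 to -0.49 (median -0.90) in DKD mice and from -0.60 to 0.08 (median -0.46) with enarodustat. DKD 9 reached the enarodustat range, DKD 5 lay far below its group, and enarodustat 5 far above its own. The change was 0.49 ± 0.11 (1.41-fold, adjusted p = 0.0395), and the call was lost when sham 2 or 4, DKD 1, 2, 3, 6 or 8, or enarodustat 2, 3, 4, 5, 6, 8 or 9 was left out (adjusted p up to 0.0711, and 0.0142 to 0.461 over all alternatives).

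Ehd3 encodes an endocytic ATPase that in kidney marks glomerular endothelium. Its levels ran from 1.65 to 1.99 (median 1.76) in sham mice, from 1.53 to 2.03 (median 1.82) in DKD mice and from 1.85 to 2.43 (median 2.19) with enarodustat. Enarodustat 2 and 5 lay within the DKD range, and the other 7 lay above every DKD and sham array. Ehd3 changed by 0.37 ± 0.09 (1.29-fold, adjusted p = 0.0456), a call lost on leaving out any 1 of 19 arrays, the exceptions being sham 5, DKD 1, DKD 8, enarodustat 2 and enarodustat 5 (adjusted p up to 0.102, and 0.0243 to 0.242 over all alternatives). Ehd4, its close relative, named after its values were seen, changed by 0.30 ± 0.08 and did not pass (adjusted p = 0.067). Egfl7, a secreted protein of the vascular matrix, lay between 4.18 and 4.48 (median 4.28) in sham mice, between 3.99 and 4.63 (median 4.38) in DKD mice and between 4.53 and 5.40 (median 4.71) with enarodustat. DKD 4 and DKD 9 overlapped the enarodustat arrays, and no sham array did. The change was 0.44 ± 0.11 (1.36-fold, adjusted p = 0.0484), also lost on leaving out any 1 of 19 arrays, the exceptions being DKD 4, DKD 6, DKD 9, enarodustat 2 and enarodustat 7 (adjusted p up to 0.101, and 0.00213 to 0.421 over all alternatives).

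**Figure D2:**
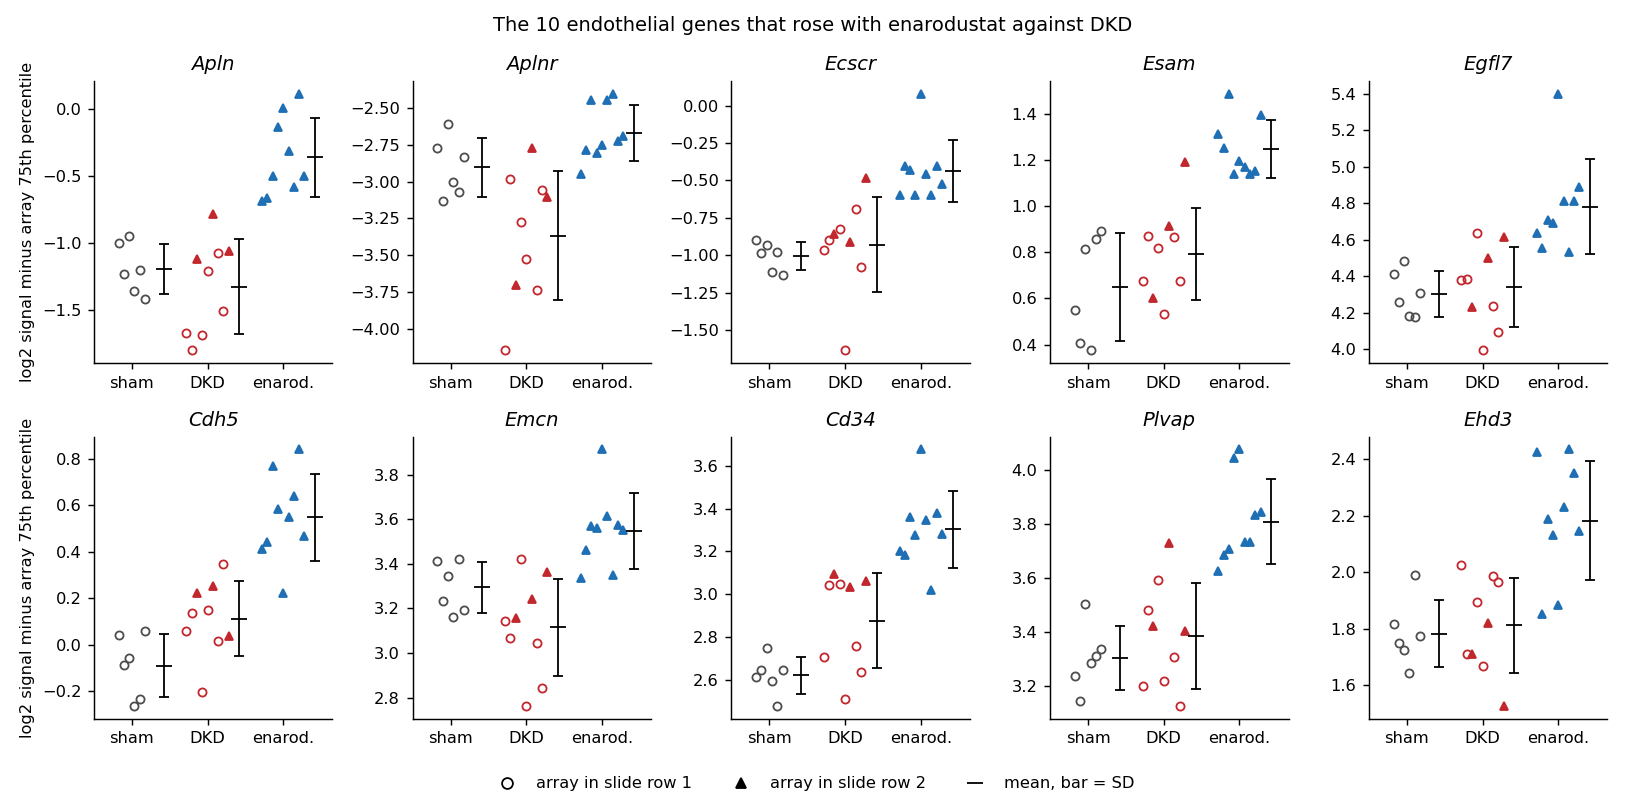
Level (log2 signal minus the array's 75th percentile, y axis) of the 10 endothelial genes that passed in enarodustat minus DKD, on each array by group, with open circles for arrays in the first slide row, filled triangles for the second, and the mean with SD beside each group. The enarodustat arrays lie wholly above the DKD arrays for Apln, and overlap 1 or more DKD arrays in the other 9 panels.

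The genes that did not pass were mostly above 0 as well. Esm1 was at 0.49 (adjusted p = 0.0702), Robo4, a guidance receptor that stabilizes vessels, at 0.40 ± 0.11 (adjusted p = 0.0969), Notch4, an endothelial Notch receptor, at 0.39 ± 0.12 (adjusted p = 0.149), and S1pr1, the sphingosine-1-phosphate receptor of endothelium, at 0.34 ± 0.11 (adjusted p = 0.178). The 7 transcription factors had a median of 0.16 and a range of 0.03 to 0.23, and their ETS member Ets1 was at 0.16 ± 0.09 (adjusted p = 0.57), with 0.29 at its second probe. Nos3 was at 0.22 (adjusted p = 0.439), Pecam1 at 0.18 (adjusted p = 0.395), and Vwf at 0.12 (adjusted p = 0.9), with -0.18, -0.15 and 0.68 within the slides. Arterial genes divided: Notch4, Gja4 (0.21, adjusted p = 0.454) and Dll4 (0.16, adjusted p = 0.66) were above 0, and Gja5 at -0.27 ± 0.10 (adjusted p = 0.311) and Bmx at -0.07 (adjusted p = 0.866) were the only members below 0. A p-value that misses the threshold does not show that these genes were unchanged.

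The position of the arrays on the slides bore on this comparison. With the slide row as a term, the median over the 38 was 0.25 and 31 were above 0, but 0 of 38 passed in limma, with 13 higher and 0 lower at an unadjusted p under 0.05, and 0.107% of all genes were higher. The 3 DKD arrays of the second row shared it with all enarodustat arrays. A comparison with them alone gives the same changes by construction, so it is not a separate check. There the median was 0.25, against -0.04 over all genes, and 0 of 38 passed (15 higher and 0 lower at an unadjusted p under 0.05), with 0.118% of all genes higher. In that row the change was 0.63 for Apln (adjusted p = 0.167), 0.53 for Aplnr, 0.50 for Ehd3, 0.38 for Cdh5, 0.35 for Esam, 0.33 for Egfl7, 0.32 for Ecscr, 0.30 for Emcn, 0.29 for Plvap and 0.24 for Cd34. Over all alternatives the adjusted p of Apln ran from 0.000134 to 0.179. Apln levels in all 9 enarodustat arrays were above the 3 second-row DKD arrays, which lay between -1.12 and -0.79, and the same held for Ehd3. Separation from 3 arrays is easier to reach than from 9, and its share over all genes was not counted. Within the DKD group, 25 of the 38 genes had a higher mean in the second row than in the first, with a median difference of 0.12. All genes also differed by row, with a median DKD minus sham of 0.036 for second-row DKD arrays and -0.034 for first-row ones. This comparison within a row rests on 3 DKD arrays, and the part of the row in the results was not otherwise tested. With array-median scaling 1 of the 38 passed, Apln (0.93, adjusted p = 0.00572), where 0.186% of all genes were higher. The median over the 38 was then 0.21, against -0.03 over all genes, and 34 were above 0.

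Several of the 38 genes were higher in enarodustat-treated diabetic kidneys than in sham kidneys. In enarodustat minus sham, 17 of the 38 rose and 0 fell in limma, against a background of 8.74% higher and 6.75% lower among all genes (15.5% in either direction). At an unadjusted p under 0.05 there were 28 higher and 0 lower of the 38, where 15.4% of all genes were higher and 14.2% lower. The median over the 38 was 0.31, with 36 above 0, against -0.02 over all genes, and the within-slide medians were 0.27, 0.39 and 0.39. In 9 genes (Apln, Cd34, Cdh5, Vwf, Esam, Ecscr, Plvap, Egfl7 and Pecam1) all 9 enarodustat arrays lay above all 6 sham arrays, where 2.91% of all genes did so upward and 2.03% downward. By role, 4 of 8 junction genes passed, 2 of 2 glomerular, 2 of 5 arterial, 3 of 6 capillary, 1 of 7 transcription factors, 2 of 6 receptors and enzymes, and 3 of 4 secreted proteins.

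In the fit without the slide row, the largest rises were those of Apln (0.83 ± 0.15, 1.78-fold, adjusted p = 0.000824), Cd34 (0.68 ± 0.10, 1.61-fold, adjusted p = 9.04e-05) and Cdh5 (0.64 ± 0.09, 1.56-fold, adjusted p = 9.04e-05). Esam (0.60), Ecscr (0.57), Plvap (0.51), Egfl7 (0.48) and Ehd3 (0.40) rose here as they did against DKD, while Emcn (0.25, adjusted p = 0.0829) and Aplnr (0.24, adjusted p = 0.35) did not pass. For Emcn and Aplnr the DKD mean lay below the sham mean, at 3.12 against 3.29 and at -3.37 against -2.90.

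Another 9 genes passed against sham and not against DKD, although the difference between these comparisons was not tested. S1pr1 ran from -1.22 to -0.87 (median -1.13) in sham mice, from -1.01 to -0.46 (median -0.83) in DKD mice and from -1.01 to 0.01 (median -0.49) with enarodustat. Enarodustat 9 lay within the sham range and the other 8 lay above it. The change was 0.60 ± 0.12 (1.52-fold, adjusted p = 0.00153). Vwf ran from -2.22 to -1.47 (median -1.81) in sham mice, from -2.34 to -0.91 (median -1.14) in DKD mice and from -1.44 to -0.76 (median -1.29) with enarodustat. Sham and enarodustat arrays did not overlap, while DKD arrays overlapped both, with DKD 9 the lowest of all 24 arrays. Vwf rose by 0.60 ± 0.18 (1.52-fold, adjusted p = 0.0233), and did not pass without sham 2, 3 or 5 (adjusted p up to 0.0723, and 0.00448 to 0.098 over all alternatives). Pecam1 levels were -1.93 to -1.59 (median -1.80) in sham mice, -1.93 to -1.32 (median -1.57) in DKD mice and -1.57 to -1.23 (median -1.39) with enarodustat. Sham and enarodustat arrays were separate by a narrow gap, and DKD arrays overlapped both. Pecam1 rose by 0.39 ± 0.09 (1.31-fold, adjusted p = 0.0043).

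Clec14a, a C-type lectin of vascular endothelium, rose by 0.59 ± 0.15 (adjusted p = 0.0107). Clec14a did not pass with array-median scaling, normexp correction, the deposited values or the row term, with changes down to 0.17 and adjusted p from 0.0029 to 0.431 over the alternatives. Gja4, which encodes connexin 37, rose by 0.53 ± 0.11 (adjusted p = 0.00255). Sox17 rose by 0.50 ± 0.10 (adjusted p = 0.00162), with 0.20 at its second probe, and Notch4 by 0.47 ± 0.13 (adjusted p = 0.0174), with 0.06 at its second probe. Robo4 rose by 0.38 ± 0.12 (adjusted p = 0.0334), a call lost without sham 2, 4, 5 or 6 or enarodustat 1, 3, 4, 6, 7 or 8 (adjusted p up to 0.0938, and 0.016 to 0.229 over all alternatives), and Ehd4 by 0.36 ± 0.09 (adjusted p = 0.00611). Nos3 was at 0.30 (adjusted p = 0.0764), Gja5 at 0.15 (adjusted p = 0.432), and Ets1 at 0.07 (adjusted p = 0.722), where the second Ets1 probe gave 0.35 and array-median scaling -0.07.

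Here too the slide row lies along the groups, since no row held both sham and enarodustat arrays. With the row as a term, estimated through the DKD arrays, 2 of 38 passed, Cdh5 (0.55, adjusted p = 0.0449) and Ehd3 (0.59, adjusted p = 0.0363). In that fit 3.03% of all genes were higher, so 2 of 38 is near the background. The median over the 38 was 0.30, against -0.09 over all genes. Apln was then at 0.33 (adjusted p = 0.378) and Cd34 at 0.40 (adjusted p = 0.118), while Vwf was at 0.92 (adjusted p = 0.0642), Notch4 at 0.70 (adjusted p = 0.0588) and S1pr1 at 0.67 (adjusted p = 0.056), so the order of the genes depended on the row term. Apln and Cd34 had adjusted p from 0.000511 to 0.378 and from 8.35e-08 to 0.118 over the alternatives. Over the alternatives, adjusted p ran from 3.95e-05 to 0.0449 for Cdh5 and from 0.00301 to 0.101 for Ehd3. Array-median scaling left 6 of 38, where 3.98% of all genes were higher, and a median of 0.17, against -0.16 over all genes.

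**Figure D3:**
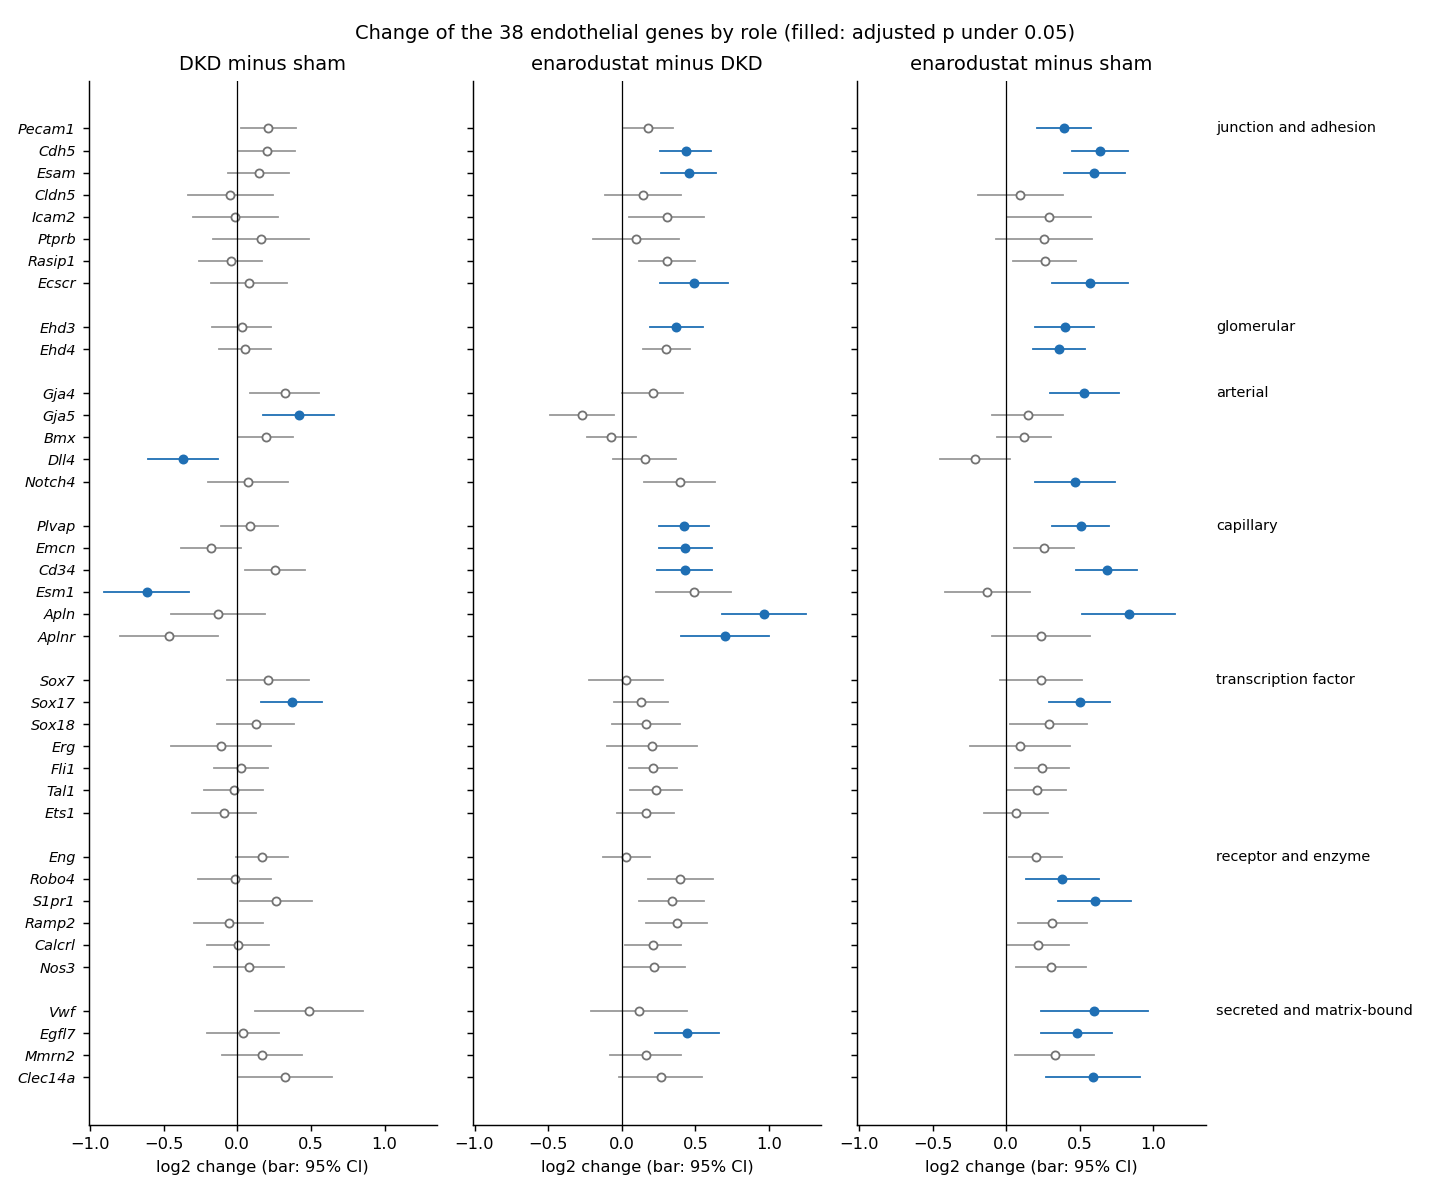
Log2 change with its 95% interval (x axis) of each of the 38 genes, ordered by role (y axis), in the 3 comparisons, with filled points for genes that passed. In DKD minus sham 4 genes passed with both signs, in enarodustat minus DKD 10 passed above 0, of which 5 are capillary genes, and in enarodustat minus sham 17 passed above 0.

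Of the 38, 16 genes passed in none of the comparisons. They were 4 junction and adhesion genes (Cldn5, Icam2, Ptprb and Rasip1), Bmx, 6 transcription factors (Sox7, Sox18, Erg, Fli1, Tal1 and Ets1), 4 receptors and enzymes (Eng, Ramp2, Calcrl and Nos3) and Mmrn2. Their changes in enarodustat minus DKD ran from -0.07 for Bmx to 0.37 for Ramp2 (adjusted p = 0.102), a subunit of the adrenomedullin receptor that pairs with Calcrl (0.21, adjusted p = 0.376). Ramp2, Calcrl and Bmx were named after their values were seen. Within groups the 38 genes varied little: the median SD was 0.21, with a range of 0.15 (Ehd4) to 0.34 (Vwf), against a median of 0.29 over all genes. The median SD of the list was 0.15 in sham mice, 0.22 in DKD mice and 0.21 with enarodustat, where the medians over all genes were 0.20, 0.31 and 0.28.

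Array by array, the median over the 38 genes of the deviation from the sham mean lay between -0.07 and 0.15 in sham mice, between 0.02 and 0.31 in DKD mice and between 0.11 and 0.47 with enarodustat. The groups overlapped through DKD 6, which lay at 0.31, and enarodustat 2 and 9, which lay at 0.11 and 0.23. Sham and enarodustat arrays overlapped as well, since sham 3 lay at 0.15, above enarodustat 2. For junction and adhesion genes the DKD arrays ran from -0.01 to 0.29 and the enarodustat arrays from 0.21 to 0.51, and for capillary genes from -0.32 to 0.27 and from 0.18 to 0.70. For arterial genes the same ranges were -0.03 to 0.43 and 0.02 to 0.47, and for transcription factors -0.12 to 0.35 and 0.002 to 0.33, so these roles overlapped over nearly their whole span. In the second slide row the 3 DKD arrays lay at 0.10, 0.31 and 0.10 for the whole list.

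**Figure D4:**
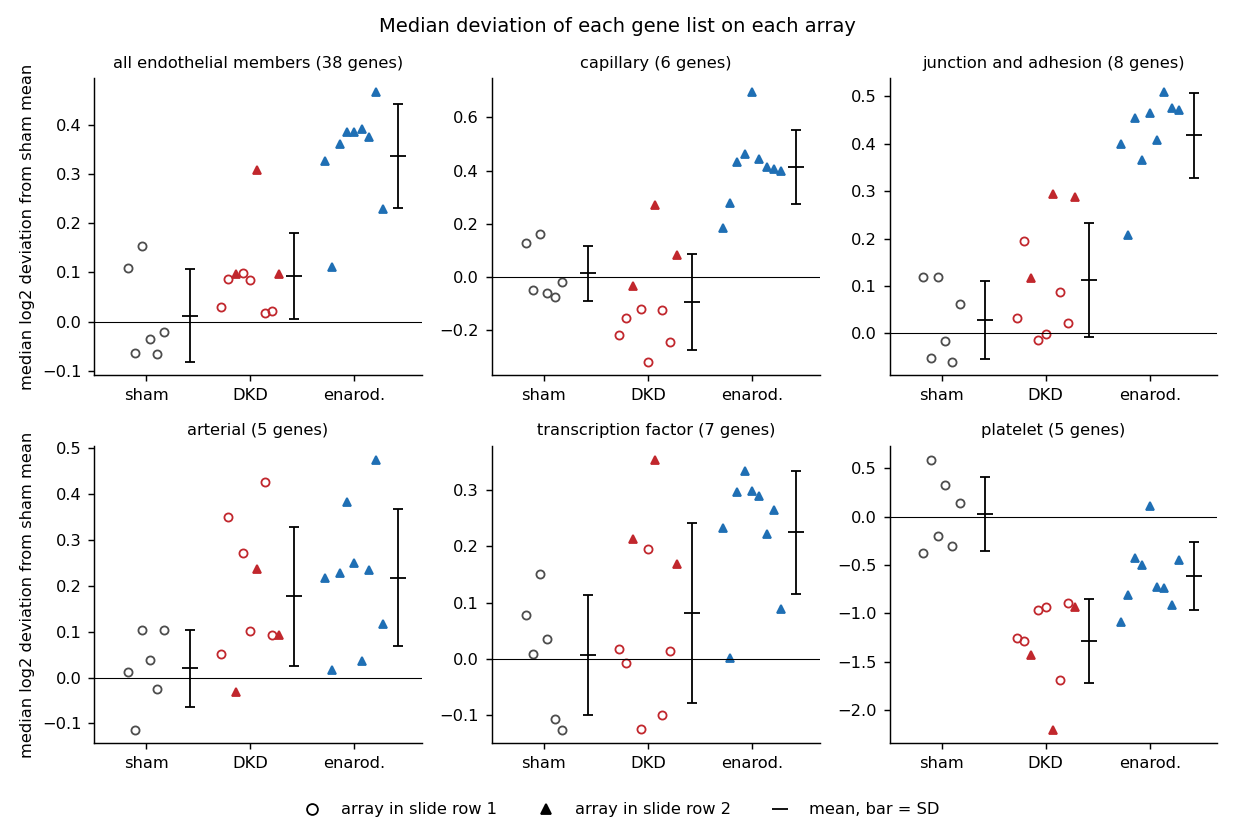
Median over the genes of a list of the log2 deviation from the sham mean (y axis) on each array by group, for all 38 endothelial genes, for 4 roles and for platelet genes, with open circles for the first slide row, filled triangles for the second, and the mean with SD beside each group. Enarodustat arrays run from 0.11 to 0.47 for all 38 genes against 0.02 to 0.31 in DKD arrays, and platelet genes are below the sham mean in all DKD arrays.

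Endothelial genes outside the list were set beside it. Of 28 such genes tested, 4 rose and 0 fell in DKD minus sham, 2 rose and 0 fell in enarodustat minus DKD (17 above 0, 11 below), and 8 rose and 0 fell in enarodustat minus sham, with median changes of 0.07, 0.09 and 0.30. Of all genes tested, 5.47%, 0.609% and 8.74% were higher in these comparisons, and 51.1% were above 0 in enarodustat minus DKD. Tie1, an orphan receptor of the angiopoietin pathway, rose by 0.40 ± 0.09 in enarodustat minus DKD (adjusted p = 0.0422), and Adgrl4, an adhesion receptor of sprouting vessels, by 0.42 ± 0.08 (adjusted p = 0.0169). Tek, the angiopoietin receptor Tie2, rose by 0.27 in DKD minus sham (adjusted p = 0.0334) and by 0.53 in enarodustat minus sham (adjusted p = 0.000185). Cd93 (0.68) and Tm4sf1 (0.48), both endothelial surface proteins, rose in enarodustat minus sham. Plat (0.53), Slc14a1 (0.93), the urea transporter of descending vasa recta, and Icam1 (0.63) also rose in DKD minus sham and were at -0.03, -0.06 and -0.10 in enarodustat minus DKD. Plat and Slc14a1 were listed with Tbx3 and Gata5 as other glomerular and vasa recta genes. That list had a median of 0.46 in DKD minus sham, with 3 of 4 above 0, and -0.045 in enarodustat minus DKD, with 0 of 4 above 0. In the latter comparison 0 of 5 venous and activated genes were above 0 (median -0.10), 12 of 13 surface and caveolar genes (0.16) and 5 of 6 VEGF and angiopoietin receptors (0.21). The VEGF receptors Kdr and Flt1, named after their values were seen, were at 0.16 and -0.04 in enarodustat minus DKD and did not pass (adjusted p of 0.647 and 0.965). None of the genes outside the list was examined with the slide row as a term. Over all genes that term left 19 higher in enarodustat minus DKD in place of 108, and 537 in enarodustat minus sham in place of 1550.

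Markers of other cells and of blood also moved. Across all genes tested, 5.47% were higher and 6.13% lower in DKD minus sham. In DKD minus sham, 4 of 5 tested platelet genes fell (Ppbp by 2.29, Pf4 by 1.05, Gp1bb by 0.93, and Gp9, which was well above background on 0 of 9 DKD arrays), 4 of 10 T, B and NK cell genes fell (Klrb1c by 1.67, Gzma by 1.26, Cd79b by 1.14 and Cd3g by 0.61), and 3 of 5 erythroid genes fell (Hbb-bt by 0.95, with Hba-a1 and Hba-a2, near-identical genes, by 0.94 and 0.93). The macrophage gene Csf1r fell by 0.89, and 6 of 6 collecting duct principal cell genes rose, among them the water channels Aqp4 (1.19) and Aqp2 (0.91). Of 8 podocyte genes 1 rose (Cdkn1c, 0.95), with 8 above 0 and a median of 0.32. The log2 summed signal of the platelet list ran from -1.02 to -0.12 in sham mice, from -1.99 to -1.0 in DKD mice and from -1.52 to -0.35 with enarodustat. That of the erythroid list ran from 8.22 to 9.56, from 7.21 to 8.89 and from 8.00 to 9.73 in the same order, and that of the 38 endothelial genes from 6.70 to 6.93, from 6.71 to 7.04 and from 6.99 to 7.41.

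In enarodustat minus DKD, the comparison with the 10 risers, Hbb-bt rose by 1.11 ± 0.26 (adjusted p = 0.0422), 1 of 5 erythroid genes, and Itga8, an integrin of mesangial cells, by 0.45 ± 0.10 (adjusted p = 0.0402), 1 of 8 mesangial and smooth muscle genes. Of all genes tested, 0.609% were higher in that comparison. None of 5 platelet genes (median change 0.70), 7 macrophage genes (0.28), 5 general leukocyte genes (0.29), 10 T, B and NK cell genes (0.15), 4 lymphatic genes (-0.17), 8 podocyte genes (-0.17) or 7 proximal tubule genes (-0.17) passed in limma. At an unadjusted p under 0.05, erythroid genes had 4 of 5 higher (median change 0.98), mesangial and smooth muscle genes 4 of 8 higher (0.28), platelet genes 2 higher and 1 lower, macrophage genes 4 higher, general leukocyte genes 2 higher, T, B and NK cell genes 3 higher, podocyte genes 1 lower and proximal tubule genes 3 lower. Over all genes, 6.46% were higher and 4.46% lower at that threshold. Summed signals ran from 3.20 to 3.82 in DKD mice and from 3.39 to 4.08 with enarodustat for macrophage genes, from 4.13 to 4.56 and from 4.38 to 5.06 for mesangial and smooth muscle genes, and from 9.23 to 9.53 and from 9.14 to 9.41 for proximal tubule genes. Sele and Gp1ba were well above background on no array, and the lymphatic marker Lyve1 on 2 of 24. In enarodustat minus sham, where 17 of the 38 and 8.74% of all genes rose, 6 of 6 collecting duct genes rose (median 0.74), as did 2 of 8 mesangial and smooth muscle genes (Cnn1, 0.70, and Rgs5, 0.64, with a list median of 0.32). In that comparison 3 of 10 T, B and NK cell genes fell (median -0.45) and 2 of 5 platelet genes fell (median -0.81), where 6.75% of all genes fell. The part of these cell types and of blood in the endothelial changes was not tested. Calls in these lists were not examined with the slide row as a term.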

How the data were processed

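Total RNA of renal tissue from 24 mice was hybridised to 24 one-colour (Cy3) Agilent arrays. The spot intensity was extracted, background-subtracted and deposited by the authors with Agilent Feature Extraction 12.1.1.1, per the file headers. The submitters' processing notes name Agilent Feature Extraction 11.5.1.1 and limma, with no role given. The authors also deposited a table of log2 values for 31409 probes, used as an alternative. Its scale and centring were found by a rebuild (normexp with offset 50 on median spot signals, then quantile normalization), from which 762 of 753816 values differed by more than 0.05, and its column medians ran from 7.543 to 7.559.

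Here, control spots were removed, spots of a probe averaged and log2 processed signals scaled by subtracting each array's 75th percentile (187 to 388 in signal units). No non-control spot was saturated. The RefSeq gene table (GRCm38.p6) named 32994 of 56605 probes through their accessions (22911 symbols) and left 23611 unnamed. The brightest probe stood for a gene. Testing required a signal well above background in 6 or more of the 24 arrays (17736 genes), and 20 values with an outlier mark were dropped, 0 of them of the 38 genes. limma 3.58.1 (R 4.3.3, data.table package version 1.17.8) fitted the 3 groups, with two-sided moderated tests and Benjamini-Hochberg adjustment over all genes tested. The scripts were tested on simulated data. The number of arrays limits the precision.

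The series text gives a number of mice per group, and each array was taken as 1 mouse. Replicate numbers were not taken to pair the samples. Alternatives were array-median scaling, quantile normalization, normexp correction (on median spot signals), the deposited values, other filters on dim probes, the mean over probes, slide as a block, slide row as a term, the replicate block, trended and robust variances, and leaving out each array.

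Members passing in any comparison were named (over 20, those with the largest absolute change), besides Ets1, Pecam1, Cdh5, Plvap, Ehd3, Gja5, Apln, Esm1, Nos3 and Vwf and up to 4 passing genes of a context list. The members, lists and rule were chosen with earlier results of these data known.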

Additional observations from a re-analysis of the deposited data

Results flagged for a closer look

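In 114 combinations of gene and group, 6 held an array that stood apart from the others of its group by Dixon's criterion, which chance meets in about 1 of 20. In the enarodustat group this array was enarodustat 5, the highest of 9, for Cldn5 (0.55, next 0.12), Ecscr (0.08, next -0.40), Emcn (3.91, next 3.61), Tal1 (-1.93, next -2.31) and Egfl7 (5.40, next 4.89). In the sham group, sham 5 was the lowest array for Ptprb (2.18, next 2.56). Enarodustat 5 was the highest of its group in 13 of the 38 genes. Its median deviations from the sham mean were also high for macrophage genes (0.67), general leukocyte genes (0.57) and erythroid genes (0.78). Without enarodustat 5, 8 of the 38 genes rose in enarodustat minus DKD and the median change was 0.24. The part of other cell types in its values was not tested.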

How the results depend on the processing

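Counts and medians refer to the 38 genes. Array-median scaling moved all 38 genes of a comparison by the same amount, and the cause of the other changes with a setting was not tested. With array-median scaling, DKD minus sham had 0 higher and a median of -0.028 (-0.117 over all genes). Enarodustat minus DKD then had 1 higher, and enarodustat minus sham 6 higher and a median of 0.165 (-0.159 over all genes). Of all genes, 2.13% were then higher in DKD minus sham, 0.186% in enarodustat minus DKD and 3.98% in enarodustat minus sham. In DKD minus sham this scaling turned Ecscr (-0.027), Ehd3 (-0.076), Ehd4 (-0.050), Notch4 (-0.029), Plvap (-0.022), Nos3 (-0.022) and Egfl7 (-0.067), and in enarodustat minus sham Ets1 (-0.073). The lower count in DKD minus sham was 1 with normexp correction, without a filter on dim probes, with the replicate block and with trended, robust variances. The higher count there was 0 with the mean over probes and 1 with the replicate block. With slide row as a term, 0 rose in enarodustat minus DKD and 2 in enarodustat minus sham (0.107% and 3.03% of all genes). Aplnr in enarodustat minus sham was then -0.023. Ecscr (-0.009) and Egfl7 (-0.016) turned in DKD minus sham with the row as a term and with DKD arrays of row 1 only. Against DKD arrays of row 2 only, 0 rose in enarodustat minus DKD. These row subsets were chosen after seeing the data, and they give the same changes as the row term. Same-numbered samples of different groups had a median correlation of 0.097 (-0.358 to 0.282), against -0.024 (-0.463 to 0.543) for other-numbered ones. For samples of different groups on the same slide it was 0.189, against -0.093 on other slides. The numbers were not taken as pairs. With the replicate block 4 rose in enarodustat minus DKD, and Ehd3 was -0.007 in DKD minus sham. Robo4 in DKD minus sham was 0.047 with quantile normalization, 0.049 in the deposited values and 0.022 with the replicate block. Leaving out 1 array gave 0 to 3 higher, 1 to 3 lower and medians of 0.048 to 0.094 in DKD minus sham. It gave 7 to 11 higher and medians of 0.22 to 0.283 in enarodustat minus DKD, and 15 to 19 higher and medians of 0.289 to 0.354 in enarodustat minus sham. Robo4 in DKD minus sham then ran from -0.073 to 0.045, and Vwf in enarodustat minus DKD from -0.010 to 0.169. The last counts refer to 24 of the 38 genes, those passing in any comparison together with Ets1 and Nos3. Of their planned comparisons with a setting, 2394 kept direction and call, 150 lost a call, 27 gained one and 21 turned. Many of these settings left out 1 array. Where that array belonged to a group outside the comparison, the direction could not turn, so the 2394 overstate the stability.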
